A study of Arabidopsis thaliana with 12 samples.

Results

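The double mutant djc31 djc62 of Arabidopsis thaliana was compared with the single mutant djc31, with 3 libraries on each side and over all loci of the deposited table. The djc31 plants carry the T-DNA insertion SALK_034886 in DJC31 (AT5G12430). The double mutant is mutated in DJC31 and in DJC62 (AT2G41520); its label names no alleles, while the djc62 single mutant is SALK_050913. The comparison therefore asks what differs when DJC62 is disrupted in plants whose DJC31 is disrupted already. These are 6 of the 12 libraries of the series, and 19385 of 36917 loci had enough signal to be tested. No wild-type library entered, so every rise or fall below is relative to djc31. The 3 libraries of the single mutant djc62 (SALK_050913 alone) are given beside some results, to show where that genotype lies.

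RNA came from whole soil-grown plants at the 4-leaf stage, in long days and with no stress treatment named in the labels. All libraries shared 16 hours of light and 8 of dark, 100 µmol of light per square metre per second, 21 °C by day and 16 °C by night. Each single mutant is represented by 1 SALK line, a T-DNA collection, and where the insertions lie within the genes is not stated in the labels. Nor do the labels say that the 3 replicates were sown separately. The p-values therefore reflect only the spread among these libraries, part of which may be technical. In such bulk samples, fewer cells of a type and less RNA per cell cannot be told apart.

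DJC31 and DJC62 are co-chaperones that join tetratricopeptide repeats to a J domain. J domains stimulate the ATPase of HSP70, which drives its cycle of binding and releasing unfolded proteins. Tetratricopeptide repeats of the carboxylate clamp kind dock on the C-terminal tails of HSP70 and HSP90, the chaperones that fold and mature kinases, receptors and transcription factors.

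Values are normalised read counts, that is reads divided by 1 size factor per library. A locus was called when limma's Benjamini-Hochberg adjusted p, over all 19385 loci, was under 0.05. Fold changes come from log2(value + 1), so the change of genes with few reads is understated, and their errors are standard errors of the fit. The djc31 libraries held 13.6 to 30.63 M reads and the double-mutant libraries 24.31 to 28.81 M. Libraries correlated at 0.957 to 0.967 within djc31, at 0.985 to 0.988 within the double mutant and at 0.932 to 0.953 between them. The djc31 libraries thus differed more among themselves, and whether this lies in the plants or in the preparation was not tested. The 50 loci with most reads, 41 of them photosynthesis genes, took 29.1 to 33.3% of all reads in djc31 and 21.4 to 22.9% in the double mutant.

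The targeted genes followed the labels. DJC62 read 311, 494 and 434 in djc31 and 74.6, 93.8 and 58.6 in the double mutant. It was 5.40-fold lower there (log2 change -2.43 ± 0.23, limma adjusted p = 1.43e-05), and every double-mutant library lay below every djc31 library. In djc62 the same gene read 104, 194 and 186. DJC31, disrupted in both genotypes, read 79.6, 135 and 130.2 in djc31 against 39.0, 49.1 and 54.4 in the double mutant, and 805, 914 and 917 in djc62. DJC31 thus fell by 1.23 on the log2 scale (± 0.29, limma adjusted p = 0.00647) from a level that was already low in djc31. Reads of both genes remained countable in the double mutant, and which part of each transcript they cover is not given.

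Of the 19385 loci tested, 5778 were called, which is 29.8%. They were split almost evenly, with 2833 loci higher in the double mutant (14.6%) and 2945 lower (15.2%). The larger changes were mostly rises: 1075 loci rose more than 2-fold (5.55%) and 497 fell more than 2-fold (2.56%). The median log2 change over all tested loci was 0.03. The even split holds for the deposited scaling. When values were scaled to library totals instead, the median of all loci moved to 0.43 and the calls became 7945 higher (41.0% of loci) and 769 lower (3.97%), 91.2% of calls being higher against 49.0%. Changes below are given on the deposited scale. The count was lower with a double-mutant library left out: 2986 without replicate 1, 2957 without replicate 2 and 4001 without replicate 3. It was 5580 to 6175 without a djc31 library. In the 3 lower fits 2975, 2953 and 3935 calls were shared with the full fit in the same direction, and none was opposite. Medians moved less than counts: -0.89, -0.82 and -0.94 for antenna genes, and 0.68, 0.67 and 0.67 for mitotic genes. Why the counts were lower was not tested.

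**Figure D1:**
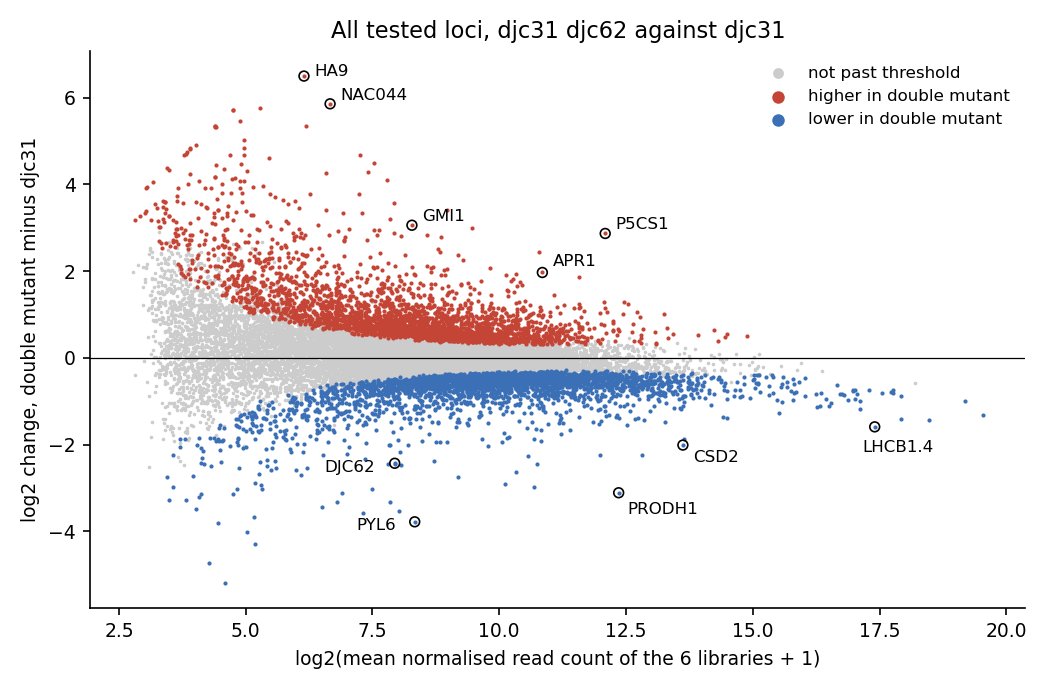
Each point is 1 tested locus, with the log2 of its mean normalised read count plus 1 over the 6 libraries on the x axis and the log2 change of the double mutant minus djc31 on the y axis. Red points rose and blue points fell in limma. The rises over 2-fold (1075 loci) spread over the low and middle range of counts, while among the most abundant 10% of protein-coding loci the median is -0.31 and 46.1% fell.

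Photosynthesis genes were lower in the double mutant as a group. All 19 tested antenna genes, whose proteins bind chlorophyll and pass light energy to the photosystems, fell, with a median log2 change of -0.88 against 0.03 for all loci. LHCB1.4 read 257244, 318473 and 207192 in djc31 and 84243, 75384 and 98779 in the double mutant. The groups were far apart and the fall was 3.0-fold (log2 change -1.59 ± 0.21, limma adjusted p = 0.000172). LHCB1.1 read 599183, 581975 and 422357 against 191358, 181016 and 219365 (2.69-fold lower, limma adjusted p = 0.000717). The LHCB1 copies are nearly identical, and how reads were shared among them is not given. LHCB4.3, a minor antenna protein of photosystem II, read 2660.0, 2496 and 2528 against 1238, 1107 and 1186, with little spread in either genotype (2.18-fold lower, limma adjusted p = 1.66e-05). Antenna transcripts together took 14.5 to 17.4% of reads in djc31 and 9.36 to 10.5% in the double mutant.

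Subunits of the photosystems and of electron transport moved the same way, with 27 of 32 falling, none rising and a median of -0.80. PSAE1, a stromal subunit of photosystem I, read 34689.7, 34565 and 25142 in djc31 and 11973, 10844 and 13712 in the double mutant (2.57-fold lower, limma adjusted p = 5.12e-05). PSAG and PSAK, also of photosystem I, were 2.21-fold and 2.2-fold lower. In the Calvin cycle, which fixes carbon dioxide, 15 of 20 genes fell and none rose, with a median of -0.57. RBCS2B, a small subunit of Rubisco, read 137906, 138316 and 111948 against 58946, 64083 and 64333 (2.06-fold lower, limma adjusted p = 0.000579). CP12-2, a regulator that binds Calvin cycle enzymes in the dark, was 2.08-fold lower. Photorespiration, which recycles the product of Rubisco's reaction with oxygen, had 9 of 11 genes lower and none higher (median -0.55), led by GLDH1, the H protein of glycine decarboxylase, at 1.82-fold. Under scaling to library totals 2 photorespiration genes fell and 1 rose (median -0.16). The count for the antenna was 13 without double-mutant replicate 1 and 10 without replicate 2. For the Calvin cycle it was 6 and 7 without the same libraries, or 10 without double-mutant replicate 3 or djc31 replicate 2, and for photorespiration it was 3 without double-mutant replicate 1 or 2.

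In chlorophyll synthesis 10 of 21 genes fell, 1 rose and the median was -0.40. This balance depends on the scaling, since with library totals 5 rose, 2 fell and the median was -0.01. The rise on the deposited scale was that of PORA, the isoform of protochlorophyllide reductase that is most abundant in dark-grown seedlings. PORA read 187, 269 and 122 in djc31 and 901, 819 and 1191 in the double mutant, a rise of 5.21-fold with no overlap (log2 change 2.38 ± 0.24, limma adjusted p = 2.28e-05). In djc62 it read 67.6, 98.4 and 129, below or within the djc31 range. PORB, the isoform of green tissue, went the other way, from 29144, 29249.9 and 24884 to 15573, 15581 and 19107 (1.66-fold lower, limma adjusted p = 0.00166). Without double-mutant replicate 1, 5 genes of the list fell in place of 10. Among 81 tested loci of the chloroplast genome 19 fell and none rose (6 fell under library totals), with 8, 9 and 9 falling when double-mutant replicate 1, 2 or 3 was left out and 9 without djc31 replicate 1. Chloroplast transcripts took at most 0.0409% of reads in any library.

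Of 389 tested ribosomal protein genes 196 fell and 14 rose, with a median of -0.42. Cytosolic ones, identified by the deposited descriptions, gave 92 falls and 3 rises of 155. AT4G31985, a protein of the L39 family of the large subunit, read 5231, 4877 and 3759 in djc31 and 2093, 1961 and 2417 in the double mutant (2.13-fold lower, limma adjusted p = 0.000127). PSRP5, specific to the plastid ribosome, fell 2.57-fold. Among the 14 rises were AT5G25230, an elongation factor G relative that rose 8.38-fold, and AT5G12110, a translation elongation factor subunit that rose 2.33-fold, both listed through their descriptions. Fewer genes fell without double-mutant replicate 1 (90, of which 36 cytosolic) or replicate 2 (111, of which 47 cytosolic), the rises being 5 and 6. Under scaling to library totals 57 fell and 55 rose with a median of -0.02, a shift close to that of all loci.

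Ribosomal and antenna genes are short, with median lengths of 1621 and 1491 bp (RefSeq, TAIR10.1) against 2419 bp for all tested loci, and level varied with gene length between libraries. In djc31 replicate 1 the median deviation from the mean of the 6 libraries went from 0.34 in the shortest 10% of protein-coding genes to -0.31 in the longest 10%. In djc31 replicates 2 and 3 it stayed between -0.08 and 0.08, and in the double mutant it rose from between -0.09 and -0.05 among the shortest to between 0.08 and 0.16 among the longest. With the length trend removed in every library, 14.4% of all loci rose and 15.7% fell, 152 of 389 ribosomal protein genes fell (median -0.27), 18 of 19 antenna genes fell (median -0.74) and 26 of 32 photosystem and electron transport genes fell (median -0.64). Without djc31 replicate 1 the counts were 184, 19 and 26.

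The change also varied with the level of the gene. Among the most abundant 10% of protein-coding loci 46.1% fell and 7.55% rose (median -0.31), and among the least abundant 10% tested 3.0% fell and 13.7% rose (median 0.55). Most photosynthesis genes lie in the top class, so the other loci of that class are given beside them. All 18 antenna genes of that class fell (median -0.86), as did 27 of 32 photosystem and electron transport genes (median -0.80) and 15 of 20 Calvin cycle genes (median -0.57), beside 45.5 to 45.8% of the loci outside each list, whose median was -0.30. Of the 200 ribosomal protein genes in the class 150 fell (75.0%, median -0.52), beside 42.7% of its other loci (median -0.27). For the 19 chlorophyll synthesis genes the share was 52.6%, near the 46.1% of the others.

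**Figure D2:**
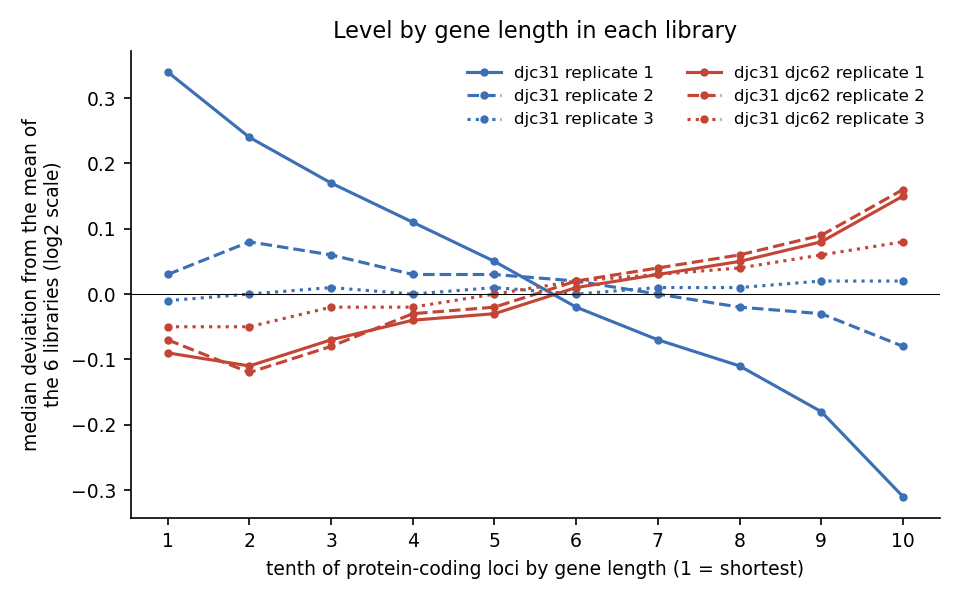
The tested protein-coding loci with a known gene length were cut into 10 classes of nearly equal size by length (x axis, shortest first). The y axis gives the median deviation of each class from the mean of the 6 libraries on the log2 scale. Lines are single libraries, blue for djc31 and red for djc31 djc62. Replicate 1 of djc31 runs from 0.34 to -0.31 and stands apart from the other 5 libraries.

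P5CS1 and PRODH1, which act on opposite sides of proline metabolism, changed in opposite directions and by large factors. P5CS1, the rate-limiting enzyme of proline synthesis and a gene induced by drought and abscisic acid, read 761, 1411 and 1053 in djc31 and 7537, 8607 and 6779 in the double mutant. This was a rise of 7.29-fold (log2 change 2.87 ± 0.18, limma adjusted p = 1.25e-06), with djc62 at 1298, 1459 and 1667. PRODH1, a mitochondrial enzyme that begins proline breakdown, read 10139, 7504 and 10355 in djc31 and 826, 828 and 1778 in the double mutant. It fell 8.64-fold (log2 change -3.11 ± 0.24, limma adjusted p = 3.02e-06), with djc62 between them at 6267, 6422 and 5159.8. Both genes thus separated the double mutant from either single mutant.

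PRODH1 also belongs to the genes raised by darkness and sugar starvation, of which 14 of 22 fell and 2 rose, with a median of -0.61. DIN6, the asparagine synthetase also called ASN1, read 4687, 3529.8 and 4125 in djc31 against 1100.3, 1173 and 1629 in the double mutant (3.19-fold lower, limma adjusted p = 1.25e-05). DIN10, a raffinose synthase family member, read 18249, 18824 and 22694 against 4367, 5165 and 7188 (3.64-fold lower, limma adjusted p = 9.48e-06). DRM1, a dormancy-associated protein, fell 3.76-fold, and its relative AT2G33830 (DRM2 in the annotation used) fell 7.87-fold. In each of these genes the groups did not overlap, which held for 22.7% of all tested loci in this direction. For PRODH1 and AT2G33830 it was a condition of the choice. Genes of nitrogen uptake and assimilation were lower as well, with 10 of 14 falling and none rising, but 3 falling and 2 rising under library totals. Of these, 9 lie among the most abundant 10% of protein-coding loci, and 6 of the 9 fell (median -0.41). Of the other loci in that class 46.0% fell (median -0.31). NIA1, a nitrate reductase, read 4759.8, 4232 and 4422 against 2158, 2314 and 2664 (1.88-fold lower, limma adjusted p = 0.000129), and NRT1.1, a nitrate transporter and sensor, was 1.64-fold lower. Without double-mutant replicate 2, 1 of the starvation genes rose in place of 2. The nitrogen count was 4, 4 and 6 without double-mutant replicates 1, 2 and 3.

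The abscisic acid and dehydration list was divided, with 12 of 43 genes higher, 10 lower and a median of 0.26. Of the 9 receptors of the hormone in the list, counted after the values were seen, 5 fell, 1 rose and 3 were not called. PYL6 had one of the largest falls of all loci, from 657, 503 and 634 in djc31 to 26.0, 46.1 and 62.8 in the double mutant (13.7-fold lower, log2 change -3.78 ± 0.27, limma adjusted p = 2.03e-06). PYL5 read 3367, 2202 and 2147 against 627, 609 and 860.2 (3.64-fold lower, limma adjusted p = 1.64e-05). PYR1, the receptor that gave the family its name, was 2.37-fold lower. In djc62 PYL6 read 589, 368 and 493 and PYL5 read 2526, 1925 and 1771, all far above the double mutant. Without double-mutant replicate 1 or 2 the list had 7 rises. In the cold list of 10 genes, 3 fell and 2 rose. KIN2, a small protein induced by cold and abscisic acid, read 3655, 3401 and 3158 against 1414, 903 and 1378 (2.81-fold lower, limma adjusted p = 3.36e-05), and COR15B, which protects chloroplast membranes in the cold, was 2.70-fold lower. Neither of the 2 cold-list rises was called without double-mutant replicate 1 or 2, 1 was called without double-mutant replicate 3 or djc31 replicate 2 or 3, and 5 of the list fell without djc31 replicate 3.

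**Figure D3:**
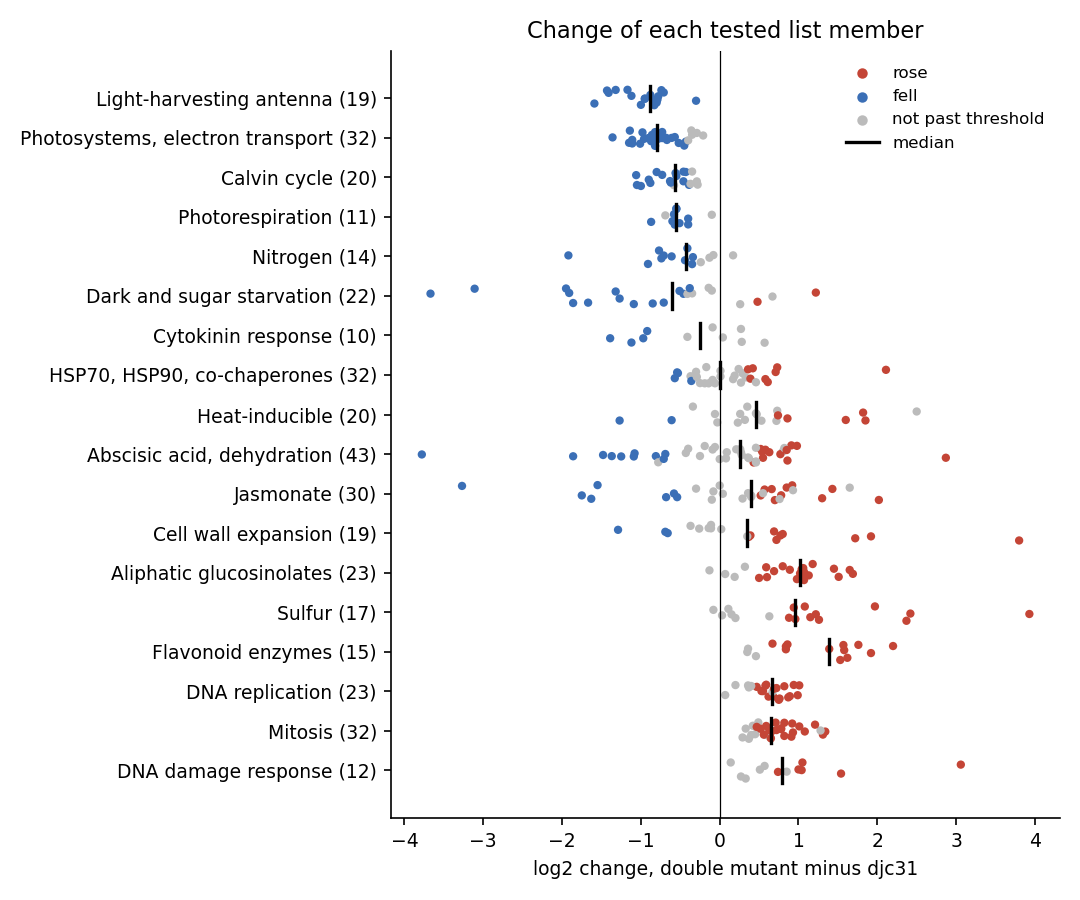
Each point is a tested member of the named gene list (number tested in brackets), with its log2 change on the x axis, red if it rose, blue if it fell and grey if it did not pass limma's threshold. The black bar is the median of the list. Antenna genes (median -0.88) lie wholly left of 0 and flavonoid enzymes (median 1.39) wholly right of it, while the abscisic acid list spreads from -3.78 to 2.87.

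Of 10 cytokinin response genes 4 fell and none rose. The list's median of -0.25 became 0.15 under scaling to library totals, where 4 still fell and 3 rose. The 4 were the A-type response regulators ARR4, ARR6, ARR7 and ARR15, which are induced by cytokinin and damp its signalling. ARR4 read 6157, 6015 and 5740.2 in djc31 and 2548, 2470.4 and 3283 in the double mutant (2.17-fold lower, limma adjusted p = 4.95e-05). ARR15 read 307, 492 and 505 against 164, 149.6 and 169 (2.63-fold lower, limma adjusted p = 0.000300). Among 15 auxin genes 4 rose and 1 fell, with 7 rising without djc31 replicate 1 and none falling without double-mutant replicate 1. GH3.5 and GH3.6, which conjugate auxin to amino acids, rose 2.94-fold and 2.35-fold, the second from 879, 1009.7 and 898 to 2097, 2304 and 2144 (limma adjusted p = 1.25e-05).

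In the cell wall list 9 of 19 genes rose and 3 fell, and the lowest adjusted p-values belonged to expansins, which loosen cell walls during growth. The rise with the highest fold was that of PRE5, a small helix-loop-helix protein, from 7.96, 0 and 3.38 to 42.5, 50.6 and 46.0 (13.9-fold, limma adjusted p = 0.00280). EXPA15 read 188, 196 and 218 in djc31 and 871, 853 and 597 in the double mutant (3.79-fold higher, limma adjusted p = 8.67e-06). EXPA8 read 275, 359 and 289 against 914, 1185 and 954 (3.3-fold higher, limma adjusted p = 9.09e-06), while djc62 lay below djc31 at 168, 210.3 and 111. EXPA6 and EXPA3 were 1.65-fold and 1.71-fold higher. The groups did not overlap in any of these genes, which held for 23.5% of all tested loci in this direction. Any 1 double-mutant library left out reduced the 9 rises to 6, and the falls were 1 without replicate 1 and 2 without replicate 2.

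Transcripts of glucosinolate synthesis and of sulfate assimilation were higher in the double mutant, while the compounds themselves were not measured. Aliphatic glucosinolates are made from methionine and deter herbivores, and 19 of 23 tested genes of their synthesis rose, none fell and the median was 1.02. MYB28, the main transcription factor of the pathway, read 868, 1244 and 1419 in djc31 and 3372, 3254 and 2842 in the double mutant (2.73-fold higher, limma adjusted p = 4.81e-05). CYP83A1, which oxidises aldoximes of the aliphatic branch, read 3919.6, 4812 and 4459.8 against 9876, 8425 and 9097 (2.08-fold higher, limma adjusted p = 5.30e-05). The indolic branch, made from tryptophan, had 5 rises and 1 fall of 11. CYP79B2, its entry enzyme, rose 2.71-fold from 512, 612 and 368 to 1493, 1217 and 1268, and in djc62 it read 1563, 1431 and 1328.

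Sulfate assimilation and sulfur-starvation genes gave 11 rises and no fall of 17, with a median of 0.96. APR1, an adenosine phosphosulfate reductase that controls the flux of sulfate reduction, read 846, 692 and 709 in djc31 and 3195, 3103 and 2525 in the double mutant. The rise was 3.92-fold (log2 change 1.97 ± 0.13, limma adjusted p = 1.25e-06), with djc62 at 1306, 1367 and 1317. LSU2, a marker of low sulfur, read 95.6, 103 and 75.2 against 502, 482 and 434 (5.17-fold higher, limma adjusted p = 3.02e-06), and djc62 lay below djc31 with 73.4, 65.3 and 71.6. SDI2, also induced by sulfur shortage and a repressor of glucosinolate synthesis, was 5.34-fold higher. Over the fits that left out 1 library, 9 to 11 sulfur genes and 18 to 20 aliphatic glucosinolate genes rose.

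Flavonoid and anthocyanin genes had the highest median of the pathway lists, 1.39, with 12 of 15 enzymes higher and none lower. DFR, the enzyme that commits flavonoids to anthocyanin, read 654, 522 and 647 in djc31 and 2641, 2104 and 1540.4 in the double mutant (3.38-fold higher, limma adjusted p = 2.04e-05). UGT75C1, an anthocyanin glucosyltransferase, read 121, 135 and 113 against 397, 452 and 282 (3.0-fold higher, limma adjusted p = 0.000129). TT19, a glutathione transferase needed for anthocyanin transport, rose 2.62-fold. Of the regulators, 3 of 9 rose and 1 fell, and these lie on both sides of the pathway's control. PAP1, the MYB activator of anthocyanin synthesis, read 10.6, 17.2 and 18.6 against 143, 126 and 87.9 (7.33-fold higher, log2 change 2.87 ± 0.35, limma adjusted p = 0.000108). MYBL2, a repressor of the same pathway, read 2031, 2101 and 1992 against 796, 770.1 and 969.8 (2.43-fold lower, limma adjusted p = 1.50e-05). TT8 and EGL3, the bHLH partners of PAP1, rose 3.93-fold and 2.12-fold.

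**Figure D4:**
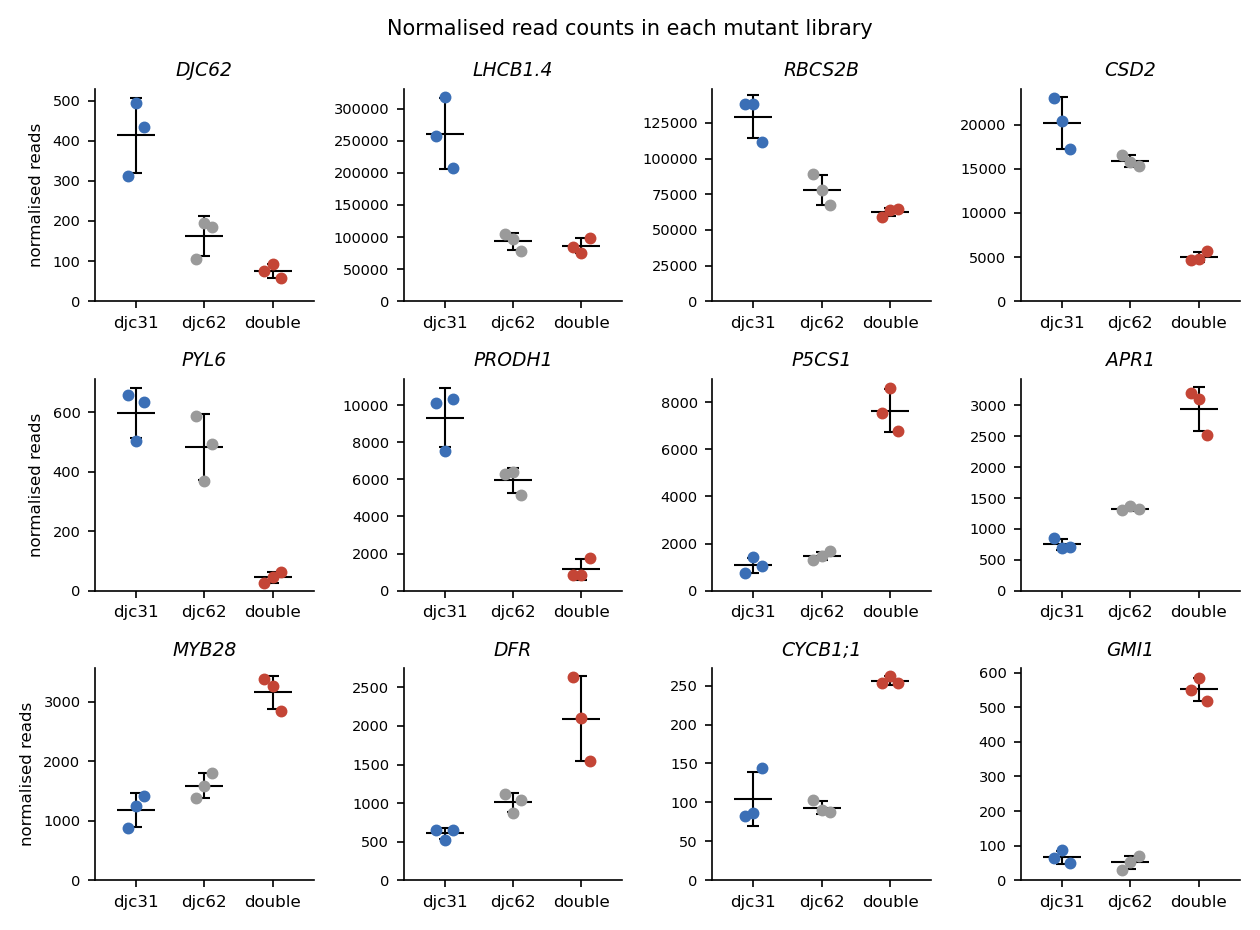
Normalised read counts of 12 genes in the libraries of djc31 (blue), djc62 (grey) and djc31 djc62 (red, labelled double), 3 libraries each, with the mean and SD in black and axes starting at 0. LHCB1.4 and RBCS2B are low in djc62 as well as in the double mutant, whereas PYL6, PRODH1, P5CS1, CYCB1;1 and GMI1 set the double mutant apart from both single mutants.

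Cell cycle genes were higher in the double mutant. Of 23 genes of DNA replication 17 rose and none fell (median 0.67), and of 32 mitotic genes 23 rose and none fell (median 0.66). MCM2, a subunit of the replicative helicase, read 222, 254 and 254 in djc31 and 535, 489 and 445 in the double mutant (2.01-fold higher, limma adjusted p = 0.000384). CYCB1;1, a cyclin of the transition from G2 to mitosis that is also induced by DNA damage, read 82.3, 85.9 and 144 against 253, 263 and 253 (2.53-fold higher, limma adjusted p = 0.000931). AUR1, the Aurora kinase of the spindle, rose 1.88-fold from 212, 174 and 235 to 392, 364 and 404. In each of these genes the lowest double-mutant library lay above the highest djc31 library, as it did in 23.5% of all tested loci. The 17 replication genes became 8, 6 and 8 and the 23 mitotic genes 13, 13 and 14 without double-mutant replicate 1, 2 or 3.

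DNA damage response genes were measured separately, and 6 of 12 rose with none falling (median 0.80). GMI1, a structural-maintenance protein induced by double-strand breaks, read 65.0, 85.9 and 49.0 in djc31 and 550.2, 586 and 519 in the double mutant. It was 8.37-fold higher (log2 change 3.06 ± 0.21, limma adjusted p = 1.59e-06), and djc62 at 30.3, 53.4 and 70.1 lay with djc31. BRCA1, of homologous recombination repair, read 129, 144 and 167 against 282, 328 and 292 (2.05-fold higher, limma adjusted p = 0.000992). SMR7, an inhibitor of cyclin-dependent kinases induced by genotoxic stress, was 2.90-fold higher, from 13.3, 25.8 and 19.4 to 52.1, 60.3 and 57.7. Without double-mutant replicate 2 the list had 3 rises, and SMR7 was then not called (limma adjusted p = 0.0557). NAC044, one of the largest rises of all loci, encodes a transcription factor that acts downstream of SOG1 in the DNA damage response. It read 7.96, 0 and 3.38 in djc31, 16.3, 8.48 and 24.6 in djc62 and 216, 176 and 200 in the double mutant (log2 change 5.86 ± 0.64, limma adjusted p = 4.72e-05). Its close relative NAC085 had no read in any djc31 or djc62 library and 45.1, 34.2 and 40.2 in djc31 djc62. Allowing 3 reads over the djc31 libraries, this is at least 31.9-fold higher.

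Of 6 shoot meristem markers 4 were tested, and 2 of these rose and none fell. STM, the homeobox gene that maintains the meristem, read 109, 103 and 82.8 against 365, 290.2 and 312, and KNAT1, of the same class, read 98.2, 98.8 and 92.1 against 371, 377 and 274. They rose 3.27-fold and 3.47-fold (limma adjusted p = 5.30e-05 and 3.48e-05). The other tested markers were not called: ANT, of young organ primordia, was at 509.7, 494 and 527 against 515, 560.3 and 504, and CUC2, of organ boundaries, at 5.31, 12.9 and 11.8 against 21.7, 29.8 and 11.7. WUS had no reads in the 6 libraries and CLV3 read at most 2.65. The summed level of the list was 709 to 725 in djc31 and 1101 to 1273 in the double mutant, and its part in the cell cycle result was not tested.

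Chaperone genes, whose products work with such co-chaperones, were divided on the deposited scale. Of 32 genes for HSP70, HSP90 and their co-chaperones 8 rose and 4 fell, with a median of 0.01, close to the 0.03 of all loci. The lowest log2 change in the list was -0.57. Under scaling to library totals 19 rose and none fell, with a median of 0.41 beside 0.43 for all loci. HSC70-2, a cytosolic HSP70, stood apart, reading 154, 137 and 139 in djc31, 227, 134 and 167 in djc62 and 544, 673 and 650.2 in the double mutant. It rose 4.31-fold (log2 change 2.11 ± 0.16, limma adjusted p = 2.28e-06). MTHSC70-2, of mitochondria, and HSC70-3, of the cytosol, rose 1.65-fold and 1.64-fold. Among 20 tested heat-inducible genes 5 rose and 2 fell, or 13 and 1 under library totals. HSP70-4 read 59.7, 43.0 and 41.4 against 154, 229 and 139 (3.53-fold higher, limma adjusted p = 0.000371), and HSP90.1 read 39.8, 36.5 and 57.5 against 122, 146 and 137 (3.04-fold higher, limma adjusted p = 0.000791). HSFA7A, a heat shock factor, fell 2.40-fold. Removing double-mutant replicate 1 or 2 gave 5 or 4 rises in place of 8 and 2 falls in place of 4 in the HSP70 and HSP90 list, and 2 fell without djc31 replicate 2. For heat-inducible genes 3 rose without double-mutant replicate 2 and 8 without djc31 replicate 1 or 2, and 1 of the 2 falls was called without any 1 double-mutant library or djc31 replicate 3. In the endoplasmic reticulum list 3 of 12 folding genes rose and none fell, led by P58IPK at 1.55-fold, with 2 rising without double-mutant replicate 1 or djc31 replicate 3, 1 without double-mutant replicate 2, and 2 falling without djc31 replicate 3.

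Genes for all 3 copper/zinc superoxide dismutases and 3 ferritins fell, of which CSD3 and FER4 were not called under library totals (limma adjusted p = 0.909 and 0.484). CSD2, the chloroplast enzyme, read 23004, 20390.1 and 17196 in djc31 and 4609, 4775 and 5663 in the double mutant (4.01-fold lower, log2 change -2.01 ± 0.13, limma adjusted p = 1.25e-06), with djc62 at 16561, 15814 and 15275. CSD1, the cytosolic enzyme, read 7756, 6381 and 4938 against 2436, 2266 and 2720.3 (2.53-fold lower, limma adjusted p = 5.22e-05). CCS, the chaperone that loads copper into both, fell 2.70-fold. In the whole list of reactive oxygen and copper genes 7 of 24 fell and 3 rose. The list's median of -0.24 was 0.16 under scaling to library totals, where 3 fell and 8 rose. Without double-mutant replicate 1 or 2 it had 4 falls and 1 rise. FER1, an iron-storing ferritin of plastids, read 10283, 9524 and 9976 against 3916, 4059 and 3457 (2.61-fold lower, limma adjusted p = 4.41e-06), and FER3 and FER4 were 2.23-fold and 1.44-fold lower. In the iron list 4 of 15 fell and 2 rose, with a median of -0.16, which under library totals was 0.19 with 2 falls and 5 rises. Of the 2 rises, 1 was called without double-mutant replicate 1 or 2 or djc31 replicate 1 or 3, and 3 rose without djc31 replicate 2.

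Jasmonate and salicylic acid genes went both ways, beside 14.6% of all tested loci that rose and 15.2% that fell. Of 30 jasmonate genes 10 rose and 7 fell, or 19 and 4 under library totals. LOX4, a lipoxygenase of jasmonate synthesis, read 150, 228 and 167 in djc31 and 997, 901 and 430.1 in the double mutant (4.06-fold higher, limma adjusted p = 0.000186), close to djc62 at 623, 874 and 643. TAT3, a tyrosine aminotransferase induced by jasmonate, read 199, 215 and 262 against 58.1, 64.0 and 77.0 (3.36-fold lower, limma adjusted p = 0.000116), while djc62 varied widely at 1109, 251 and 1777. JMT, which makes the volatile methyl jasmonate, fell 2.92-fold. Without double-mutant replicate 1 or 2 there were 6 rises, and without djc31 replicate 2 there were 4 falls. The salicylic acid list had 6 rises and 3 falls among 25 genes, or 9 and 1 under library totals. Its median of 0.05 was close to the 0.03 of all loci. PR5, a pathogenesis-related protein, read 366, 689.6 and 284 against 155, 178 and 146 (2.6-fold lower, limma adjusted p = 0.00194). In that list 3, 1 and 4 rose without double-mutant replicates 1, 2 and 3 and 9 without djc31 replicate 2, and the falls ranged from 1 to 4 over the libraries left out.

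The other leading rises, outside the lists, had little in common by annotation. HA9, a plasma membrane proton pump, had 2 reads over the djc31 libraries and 513 over the double mutant, a ratio of 157 with a counting interval of 43.6 to 1299.7 (95%). AHP4, a phosphotransfer protein of cytokinin signalling, read 13.3, 6.45 and 6.76 against 172, 171 and 198 (19.3-fold higher, limma adjusted p = 6.48e-06). AT5G45990, a relative of the splicing factor crooked neck, read 13.3, 12.9 and 18.6 against 315, 421 and 326 (22.4-fold higher, limma adjusted p = 1.25e-06). AT2G18193, an ATPase of the P-loop superfamily, rose 25.5-fold, and AT5G11410, a protein kinase, rose 19.5-fold. AT3G15720, a pectin lyase-like protein, rose 17.2-fold, AT1G30160, of unknown function, 13.6-fold and AT1G67105, an RNA with no coding model, 40.8-fold. NIT2, a nitrilase, was 13.8-fold higher with a wide spread, from 13.3, 27.9 and 0.845 to 65.1, 180.1 and 167. Lack of overlap between the libraries was a condition for choosing these genes. It held for 4563 of all tested loci (23.5%) that were higher and 4397 (22.7%) that were lower.

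Among the leading falls, DTX18, a MATE efflux carrier that exports hydroxycinnamic acid amides, read 417, 406 and 435 in djc31, 806, 643 and 816 in djc62 and 52.1, 31.3 and 42.7 in the double mutant. It was 9.97-fold lower than in djc31 (limma adjusted p = 1.25e-06) and the djc62 libraries were the highest of the 3 genotypes. RAP2.9, a transcription factor of the DREB group, read 158, 193 and 146 against 13.0, 13.4 and 16.7 (10.8-fold lower, limma adjusted p = 8.67e-06). AT5G62360, an invertase and pectin methylesterase inhibitor family member, fell 11.6-fold and AT3G55710, a glycosyltransferase, by 3.33 on the log2 scale. CYP71B22, a cytochrome P450, fell 8.66-fold, and AT4G13577 and AT3G55646, with no described function, fell 11.9-fold and 8.12-fold.

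A further view is given by loci that were read in one genotype and nearly absent from the other. With at least 20 normalised reads in each double-mutant library and at most 3 reads over the djc31 libraries together, 12 loci were found, and 2 in the reverse direction. The limit of 3 reads equals a mean of 1.25 normalised reads in djc31 and 0.81 in the double mutant. It was thus looser for djc31, and the 2 counts are not strictly comparable. Besides HA9 and NAC085 the 12 hold NDB4, an alternative NADH dehydrogenase of mitochondria, at least 41.3-fold higher, and RAX2, a MYB factor of axillary meristems, at least 32.3-fold higher. TIF3C2, a paralogue of a translation initiation factor subunit, was at least 22.2-fold higher, and NLM1, an aquaporin, at least 24.4-fold. CRK23, a receptor-like kinase, read 0 in djc31, 18.6, 5.93 and 24.6 in djc62 and 29.5, 43.9 and 46.9 in the double mutant. AT1G30170, which had no read in djc31 or djc62, read 48.6, 46.1 and 60.2 in the double mutant. The other 4 are AT1G69480, AT3G48620, AT4G35720 and AT5G54560. In the reverse direction AT2G08950 had 103 reads over djc31 against 1 (ratio 186, counting interval 33.3 to 7335), and AT5G00430 had 84 against 2 (ratio 62.8, counting interval 17.4 to 518). These intervals and bounds cover counting error only.

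**Figure D5:**
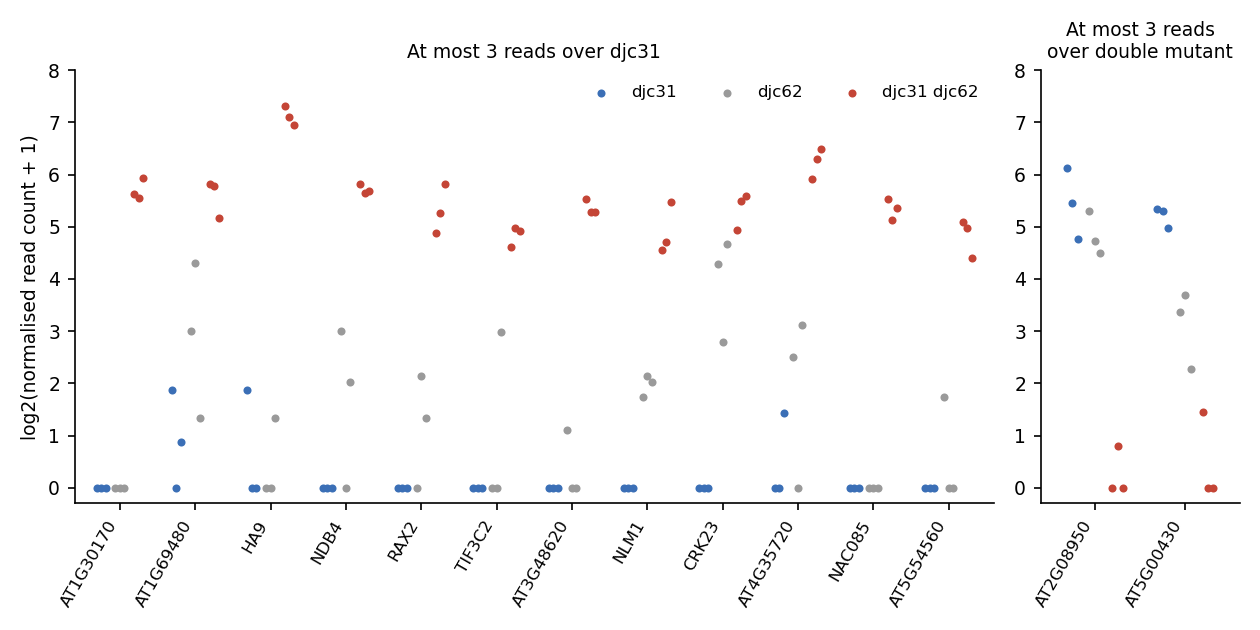
For the 12 loci with at most 3 reads over djc31 (left) and the 2 with at most 3 reads over the double mutant (right), each point is 1 library, on a log2 scale of normalised read count plus 1 (blue djc31, grey djc62, red djc31 djc62). NAC085 and AT1G30170 lie at 0 in all 6 single-mutant libraries.

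Beside djc31, the double mutant can be set against djc62 in a fit of all 9 mutant libraries. These comparisons share libraries, so their counts are given side by side and nothing is drawn from their likeness. Against djc62 the double mutant had 1855 loci higher (9.43%) and 2068 lower (10.5%) of 19676, and djc62 against djc31 had 1627 higher (8.27%) and 1133 lower (5.76%). Lists differed in which of the steps held their calls. Of the 19 antenna genes 1 fell from djc62 to the double mutant and 15 fell from djc31 to djc62. Of 23 aliphatic glucosinolate genes 3 were higher in the double mutant than in djc62 and 17 higher in djc62 than in djc31. Mitotic genes had 26 of 32 higher in the double mutant than in djc62, and 4 lower in djc62 than in djc31. DNA damage genes had 7 of 12 higher in the double mutant than in djc62 and none called between djc62 and djc31. Jasmonate genes, 31 tested in this fit, had 17 lower and 1 higher in the double mutant against djc62, and 23 higher in djc62 against djc31. Whether these steps differ from each other was not tested.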

How the data were processed

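The deposited table gives 1 normalised signal value per locus and library, and DESeq2 stands in the title of its sheet, per the file headers. Trimmomatic, FastQC and featureCounts were used by the authors on build TAIR10, per the submitters' processing notes. The aligner was not given in the sources used here, nor were versions, strandedness or the handling of multiply mapped reads, so overlapping, antisense and near-identical genes may share reads in an unknown way. Dividing by each library's smallest step gave whole reads for 100.0% of values (tolerance 0.01).

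Loci reaching 10 in 3 or more of the 6 libraries were tested (19385; 17532 were removed) with limma 3.58.1 (R 4.3.3) on log2(value + 1), with a mean-variance trend, 4 residual degrees of freedom and Benjamini-Hochberg adjustment. edgeR 4.0.16 (quasi-likelihood) and DESeq2 1.42.0 were run on the recovered reads as alternatives, and edgeR called 2914 loci higher and 2954 lower. The other alternatives were TMM scaling, library totals, a pseudocount of 5, no filter, fits of 9 or 12 libraries, a replicate block and leaving out each library. A fit with the gene-length trend removed was added after seeing the data. Scripts were tested on simulated data.

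The 36 gene lists and 6 marker lists (792 of 793 loci in the table), the comparison and the tests were chosen with earlier results of these data known. Named genes are both targets, the 10 largest rises and falls among called loci without overlap and with a mean CPM of 5 or more in either genotype, and the 4 called members of each list (or fewer) with the lowest adjusted p. Where no member was called, the 2 of highest mean were taken. Genes at or near 0 reads, marker genes that were not called, PRE5 and CSD3 were named after their values were seen. Symbols of the targets and list members were set by hand, and the others come from the deposited annotation or, where it gives none, from RefSeq. Gene lengths come from RefSeq (TAIR10.1), which matched 36632 loci. No coordinates are printed because the builds differ. Where a genotype has no reads of a locus, 3 reads over its 3 libraries together are allowed for, equal to a mean of 1.25 normalised reads in djc31 and 0.81 in the double mutant.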

Additional observations from a re-analysis of the deposited data

How the results depend on the processing

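No called gene named here reversed under any alternative: of 3210 recomputed values of 201 named genes, 3107 kept their direction and side of the threshold, 92 were no longer called and 11 became called. Scaling to library totals gave 8714 calls (7945 higher, 769 lower), 8 falls in the Calvin cycle, 57 ribosomal protein falls, 10 DNA damage rises and 3 nitrogen falls. Lists with more falls than rises had more rises than falls under it for chlorophyll synthesis (5 and 2), flowering (4 and 1), senescence (6 and 1), reactive oxygen and copper (8 and 3), iron (5 and 2) and ribosomal proteins other than cytosolic (42 and 36), and photorespiration had 1 rise and 2 falls. It turned list medians to 0.33 (flowering), 0.38 (senescence), 0.15 (cytokinin), 0.16 (reactive oxygen and copper), 0.19 (iron), 0.31 (phosphate), 0.08 (stomatal lineage), 0.25 (epidermis), 0.18 (mitochondrion-encoded) and 0.03 (ribosomal proteins other than cytosolic), each beside a shift of all loci to 0.43. With the length trend removed the epidermis median was 0.01. Rises and falls were then 3 and 4 for starch, 6 and 8 for the clock, 2 and 3 for brassinosteroid and 4 and 3 for light signalling. DNA replication had 14 rises. Medians became -0.09 for the clock, -0.08 for flavonoid regulators, -0.01 for general phenylpropanoid, and -0.02 for brassinosteroid and for HSP70, HSP90 and co-chaperones. Without a filter 11 antenna and 9 Calvin cycle genes fell.

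The values gave no sign of pairing by replicate number. Deviations of same-numbered libraries correlated at -0.08, 0.02 and -0.08, and libraries did not all correlate best with their own number. With 3 libraries per genotype, this cannot settle whether same-numbered libraries were handled together. A replicate block gave 2838 rises and 2699 falls, with 12 antenna, 7 Calvin cycle and 5 photorespiration genes falling.

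Leaving out 1 library gave 2957 to 6175 calls, 1396 to 3111 rises and 1561 to 3079 falls. Falls were 10 to 19 for the antenna, 6 to 19 for the Calvin cycle, 90 to 229 for ribosomal proteins and 4 to 9 for nitrogen. Rises were 6 to 15 for DNA replication, 13 to 25 for mitosis and 3 to 7 for DNA damage. The lowest counts came without double-mutant replicate 1 or 2.

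Limits: 3 libraries per genotype, 13.6 M reads in djc31 replicate 2, and more spread within djc31 than within the double mutant. The cause of the changes between settings was not tested.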

Other observations

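Several gene groups outside the main account were measured in the same comparison. Brassinosteroid genes were divided, with 4 of 16 higher and 3 lower. BES1, a transcription factor of the pathway, read 2371, 2335 and 2357 in djc31 and 3351, 3478 and 3431 in the double mutant (1.45-fold higher, limma adjusted p = 0.00193). CPD and DET2, enzymes of brassinosteroid synthesis, were 1.54-fold and 1.72-fold lower, but not called under scaling to library totals (limma adjusted p = 0.115 and 0.0677). Hypoxia genes had 6 of 15 higher and 4 lower. PDC2, a pyruvate decarboxylase of fermentation, fell 2.64-fold, from 415, 475 and 402 to 174, 139.9 and 174, and PCO2, a plant cysteine oxidase of oxygen sensing, rose 4.34-fold. In the clock list 6 of 24 rose and 5 fell. GRP7, an RNA-binding protein under clock control, read 6545, 7493 and 5968 in djc31, 2176, 1803 and 2516 in djc62 and 1292, 1138 and 1874 in the double mutant (4.73-fold lower than in djc31, limma adjusted p = 2.03e-06). PRR5, a pseudo-response regulator of the evening, read 73.0, 129 and 136 against 22.6, 13.4 and 41.0. The labels do not state when in the day plants were harvested. Without double-mutant replicate 1 or 2 the rises were 2 in the clock list, and 2 or 1 in the brassinosteroid list; other libraries left out gave 8 clock falls (djc31 replicate 1), 3 clock falls (djc31 replicate 3 or double-mutant replicate 2), 2 hypoxia falls (double-mutant replicate 2), and 2 brassinosteroid rises (double-mutant replicate 3).

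The counts of smaller lists stand beside 14.6% of all tested loci that rose and 15.2% that fell. Flowering genes had 1 rise and 4 falls of 16, the rise being SMZ, a repressor of flowering, from 13.3, 27.9 and 49.9 to 194, 124 and 98.7. Under scaling to library totals the flowering calls were 4 rises and 1 fall (median 0.33 in place of -0.07). Light signalling and chloroplast regulators had 5 rises and 1 fall of 25, with ELIP1, an early light-induced protein, 3.78-fold higher. Starch genes had 3 rises and 1 fall of 15, with GBSS1, which makes amylose, 1.71-fold higher. Senescence genes had 1 rise and 2 falls of 11, and SAG21 fell 4.84-fold from 2993, 2363 and 2103 to 403, 407 and 797; library totals gave 6 rises and 1 fall in that list (median 0.38 in place of -0.02). Phosphate genes had 1 rise and 1 fall of 10, and general phenylpropanoid genes 2 rises and no fall of 6. None of 11 tested mitochondrion-encoded loci was called by limma, edgeR or DESeq2, and 1 had an unadjusted limma p under 0.05. Without double-mutant replicate 1 or 2 the light list had 1 rise, and 2 flowering genes fell. Without djc31 replicate 1 the light list had 4 falls and the starch list 3 falls, and no other count of these lists moved by more than 2 calls when a library was left out.

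Of the root markers 4 of 11 were tested. PYK10, a beta-glucosidase of endoplasmic reticulum bodies, read 1897, 2209 and 1629 against 3923, 4385 and 4570.3, and SCR 519, 584 and 487 against 802, 887 and 736. Root hair markers were near 0, RHD6 having no read in the 6 libraries. Of the 4 tested markers 2 rose and 2 were not called, 1 was lower without overlap, and the lowest log2 change was -0.86. The summed root list was at 2436 to 3205 in djc31 and 5123 to 5764 in the double mutant. Most of this sum was PYK10, with means of 1911 and 4293, so it does not stand for the whole list. Stomatal lineage markers had 2 falls of 10, EPF2 and MYB60, while vascular markers had 2 rises of 10, CESA8 and CALS7, and epidermal markers 2 rises and 2 falls of 7. With 1 library left out the vascular rises were 0 to 3, and the epidermal rises 1 to 2 and falls 0 to 2. MYB60 was not called under library totals (limma adjusted p = 0.116). Floral organ markers had no call of 2 tested by limma or edgeR, 1 by DESeq2 and 1 at an unadjusted limma p under 0.05, and SEP3 read 5.31, 38.7 and 28.7 against 62.5, 46.9 and 65.3 (limma adjusted p = 0.0512).

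Called loci were spread over the nuclear chromosomes, with 28.3 to 31.7% of tested loci called on chromosomes 1 to 5. Of the 100 tested loci nearest to DJC62 by locus number 34.0% were called, and of those nearest to DJC31 33.0%, beside 29.8% of all tested loci.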
